A study of Mus musculus with 13 samples.

Results

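Collagen, laminin and integrin genes build the extracellular matrix and the receptors through which cells hold on to it, and 51 of them stood near peaks in LβT2 cells. They were chosen by name and gene type: protein-coding genes in the deposited annotation tables whose symbol starts with Col, Itga, Itgb, Lama, Lamb or Lamc and a digit, or with Itga or Itgb and a letter, together with the peaks that the tables assign to them within 100 kb of the listed start. The tables name 15486 protein-coding genes in all. The 51 genes comprise 26 collagen genes, 16 integrin genes, 4 laminin genes and 5 genes that carry such a symbol but encode another protein. They hold 879 of 538751 peaks in 12 libraries. A 52nd gene, Lama2, which encodes a laminin alpha chain, was named only for peaks farther away.

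LβT2 cells are a mouse gonadotrope line from the pituitary, and every sample carried a lentiviral, doxycycline-inducible FLAG-tagged mouse FOXL2 that was switched on for 48 h, so no sample lacked it. After 2 h in medium of low serum the cells were exposed for 1 h to activin A (1 nM) or to its vehicle. Chromatin immunoprecipitation and sequencing (ChIP-seq) was done with antibodies to SMAD2/3, to the FLAG tag (FOXL2 below) and to H3K27ac, the acetylated histone tail found at promoters and enhancers in use, with 2 libraries per treatment and antibody, each pooled from 3 plates. Whether the line is 1 clone is not stated in the labels, a Protein-A control sample was not analysed here, and the reads behind each list are unknown.

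Collagens are the fibres and networks of the matrix, laminins are trimers of an alpha, a beta and a gamma chain that lay down basement membranes, and integrins are receptors of an alpha and a beta chain that tie these proteins to the cytoskeleton. Activin A signals through receptors that phosphorylate SMAD2 and SMAD3, which then enter the nucleus and bind DNA with partners such as FOXL2, a forkhead factor of the gonadotrope. Ligands of this superfamily are well known regulators of matrix genes in many tissues.

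All 7 gonadotrope marker genes looked up were named in the tables, 5 of them with an H3K27ac region of all 4 libraries, and 6 had a SMAD2/3 region of both activin libraries. Of 6 markers of other pituitary lineages 4 were named and 1 had H3K27ac in all 4 libraries. Of 3 fibroblast markers 1 was named, and it had no H3K27ac region. Of 3 endothelial markers 2 were named, and both had H3K27ac in all 4 libraries and SMAD2/3 in both activin libraries. Of 2 folliculostellate markers 1 was named, with H3K27ac in all 4 libraries. No other-lineage, fibroblast or folliculostellate marker had a SMAD2/3 region. Of all protein-coding genes named within the limit 59.8% had H3K27ac in all 4 libraries and 11.2% had SMAD2/3 in both activin libraries. By RefSeq gene bodies with 10 kb on each side, H3K27ac was counted at 6 of 7 gonadotrope and 2 of 3 endothelial markers. On that count no other-lineage, fibroblast or folliculostellate marker had it. Whether cells of another type contributed to the values at the matrix genes was not tested. Peaks of the 4 libraries of an antibody that shared at least 1 bp were merged into regions, which gave 21 SMAD2/3, 188 FOXL2 and 94 H3K27ac regions at the 51 genes.

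Few of these genes had an acetylated start. Within 1 kb of the start used in the tables, 6 of 45 genes whose start could be placed had an H3K27ac region of both activin libraries, against 49% of all protein-coding genes with a placed start. The 6 were Lama1, which encodes a laminin alpha chain, Itga3, a laminin-binding integrin alpha chain, Itgb7, a leukocyte integrin beta chain, and Itgb1bp1, Itgb3bp and Col4a3bp, whose products are an adaptor of integrin tails, a centromere protein and a ceramide carrier. None of 22 collagen genes was among them. The tables annotated the regions at the Itgb1bp1 and Col4a3bp starts as promoters of other genes, ENSMUSG00000054309 and ENSMUSG00000021668. They assigned no H3K27ac region to Itgb3bp. To which gene this acetylation belongs was not tested. The starts in the tables are often those of internal transcripts: 23 of 45 lay more than 10 kb from the 5′ end of the gene in RefSeq (GRCm38.p6), as did 19.8% of all genes, and 19 lay within 1 kb, as did 64.5% of all genes. At RefSeq 5′ ends the acetylated genes were 8 of 75: Lama1, Lamc1, Itga3, Itga6, Itgb1, Itgb7, Itgb1bp1 and Itgb3bp. In the subset with a RefSeq promoter sequence the share was 8.06% of 62 genes, against 43% of 17491 protein-coding genes.

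At the 5′ end of Itgb1, which encodes the beta chain shared by most matrix-binding integrins, the authors' fold enrichment of H3K27ac was 6.93 and 5.71 under vehicle and 7.23 and 6.98 under activin. At Itga3 it was 3.9 and 3.45 under vehicle and 3.85 and 4.78 under activin. At Itga6, which encodes another laminin-binding alpha chain, it was 3.67 and 3.07 under vehicle and 4.49 and 3.65 under activin. The treatments overlapped at Itga3 and Itga6 and were apart by a small step at Itgb1. At Lamc1, the gene of the gamma chain found in most laminins, the values were 3.47 and 3.31 under vehicle and 3.5 and 3.76 under activin. At Lama1 they were 4.25 and 4.2 under vehicle and 7.89 and 5.74 under activin, the widest gap between treatments among the 8 starts. At Itgb7 (4.69 and 4.58, then 4.17 and 3.93) and Itgb1bp1 (4.7 and 4.96, then 4.58 and 4.48) both activin values lay below both vehicle values, and at Itgb3bp (5.87 and 6.28, then 6.04 and 5.1) the treatments overlapped. Fold enrichment here and below is the authors' linear value of the strongest peak in a region, and it belongs to its own list, so differences between lists were not tested.

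The promoter windows of the family that overlapped H3K27ac in all 4 libraries are shown because the acetylation can be read beside their sequence. The windows are the 250 bases before the RefSeq start, read 5′ to 3′ on the gene's strand, and capitals mark CAGAC, the short SMAD-binding motif, on either strand. Itgb1 is at chr8:128685404-128685653 (plus strand), Itga3 at chr11:95076715-95076964 (minus strand), Itgb1bp1 at chr12:21286285-21286534 (minus strand) and Itgb3bp at chr4:99829159-99829408 (minus strand). The fifth, at chr2:180986285-180986534 (plus strand), belongs to an internal start of Col20a1, a fibril-associated collagen gene that the tables do not name, with H3K27ac at 3.35 and 3.32 under vehicle and 2.93 and 2.95 under activin. Lama1, Lamc1, Itga6 and Itgb7, which were also acetylated at their 5′ ends in all 4 libraries, are named only.
Itgb1: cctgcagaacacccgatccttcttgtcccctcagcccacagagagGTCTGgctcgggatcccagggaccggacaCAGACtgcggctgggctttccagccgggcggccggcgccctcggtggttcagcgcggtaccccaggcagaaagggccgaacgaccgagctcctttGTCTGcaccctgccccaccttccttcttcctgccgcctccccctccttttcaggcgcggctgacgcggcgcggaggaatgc
Itga3: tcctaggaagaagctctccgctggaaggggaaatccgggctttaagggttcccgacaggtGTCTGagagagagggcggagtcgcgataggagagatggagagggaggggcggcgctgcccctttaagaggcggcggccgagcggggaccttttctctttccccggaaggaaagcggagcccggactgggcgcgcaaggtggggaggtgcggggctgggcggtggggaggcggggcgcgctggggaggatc
Itgb1bp1: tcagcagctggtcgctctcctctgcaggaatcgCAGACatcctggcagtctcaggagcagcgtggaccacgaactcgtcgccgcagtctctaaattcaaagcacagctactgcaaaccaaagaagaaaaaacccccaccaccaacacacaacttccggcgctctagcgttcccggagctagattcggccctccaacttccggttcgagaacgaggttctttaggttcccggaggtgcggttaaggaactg
Itgb3bp: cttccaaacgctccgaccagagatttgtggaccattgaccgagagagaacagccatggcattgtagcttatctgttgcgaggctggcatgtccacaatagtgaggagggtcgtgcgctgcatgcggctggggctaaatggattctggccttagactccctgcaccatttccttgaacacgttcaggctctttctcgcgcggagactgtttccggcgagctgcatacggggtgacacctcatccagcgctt
Col20a1: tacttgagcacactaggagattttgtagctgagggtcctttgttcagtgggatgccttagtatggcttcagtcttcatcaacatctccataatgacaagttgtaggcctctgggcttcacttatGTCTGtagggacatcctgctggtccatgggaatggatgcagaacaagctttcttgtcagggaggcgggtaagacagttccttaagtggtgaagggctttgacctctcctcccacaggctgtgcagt
The Itgb1 window holds 3 matches to CAGAC, the Itga3, Itgb1bp1 and Col20a1 windows 1 each and the Itgb3bp window none. A match was found in 50% of 68 promoters of the family and in 40.8% of 21262 protein-coding promoters. The palindrome GTCTAGAC was in none of the 68 (0.183% of all), the forkhead motif GTAAACA in 1 (1.47%, against 2.62%) and the AP-1 motif TGANTCA in 2 (2.94%, against 6.13%), counted on both strands. The 5 acetylated promoters of the family held a median of 17 CpG (range 1 to 22) and the other 63 of the family 9. Over all protein-coding promoters the medians were 17 for the acetylated and 5 for the others. Neither SMAD2/3 nor FOXL2 of both activin libraries overlapped any of the 68 windows, against 0.179% and 3.17% of all protein-coding promoters. FOXL2 was seen in the Itgb1bp1 window in vehicle replicate 2, at 3.36-fold, and in no other library. The Itga10 window, which had no H3K27ac, likewise had FOXL2 in vehicle replicate 2 alone, at 3.03-fold.

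SMAD2/3 was found at the genes almost entirely after activin. Vehicle replicates 1 and 2 had 1 and 0 SMAD2/3 peaks at the 51 genes, and activin replicates 1 and 2 had 20 and 15, a mean of 0.5 ± 0.707 against 17.5 ± 3.54 (SD, n = 2 libraries each, exact permutation p = 0.33, the smallest that 2 against 2 libraries allow). The difference in log2(number + 1) was 3.7, with a pooled SD of 0.537. The whole SMAD2/3 lists differed as well, with 605 and 144 peaks after vehicle and 7784 and 5970 after activin. Per 1000 peaks of a list the genes held 1.65 and 0 under vehicle and 2.57 and 2.51 under activin. When every list was cut to the length of the shortest, the log2 difference was 0.5 and no region was found under activin alone, so the size of the contrast cannot be told apart from the length of the lists.

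Of the 21 SMAD2/3 regions, 13 (61.9%) had a peak in both activin libraries and in neither vehicle library, at 9 genes. Among all SMAD2/3 regions near a protein-coding start this share was 54.1%. Both activin libraries shared 14 of the 21 regions (66.7%, against 59.6%), and the other 7 were found in 1 activin library only. No region was vehicle-only (0.051% of all) and none was found in all 4 libraries (1.4% of all). The genes were thus close to the background of the series in how often a region was specific to activin. By family, the activin libraries held 11 and 8 peaks at collagen genes, 8 and 6 at laminin genes, 1 and 1 at genes of other proteins, and none at integrin genes. In all, 9 of 51 genes (17.6%) had a SMAD2/3 region of both activin libraries, against 11.2% of protein-coding genes.

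**Figure D1:**
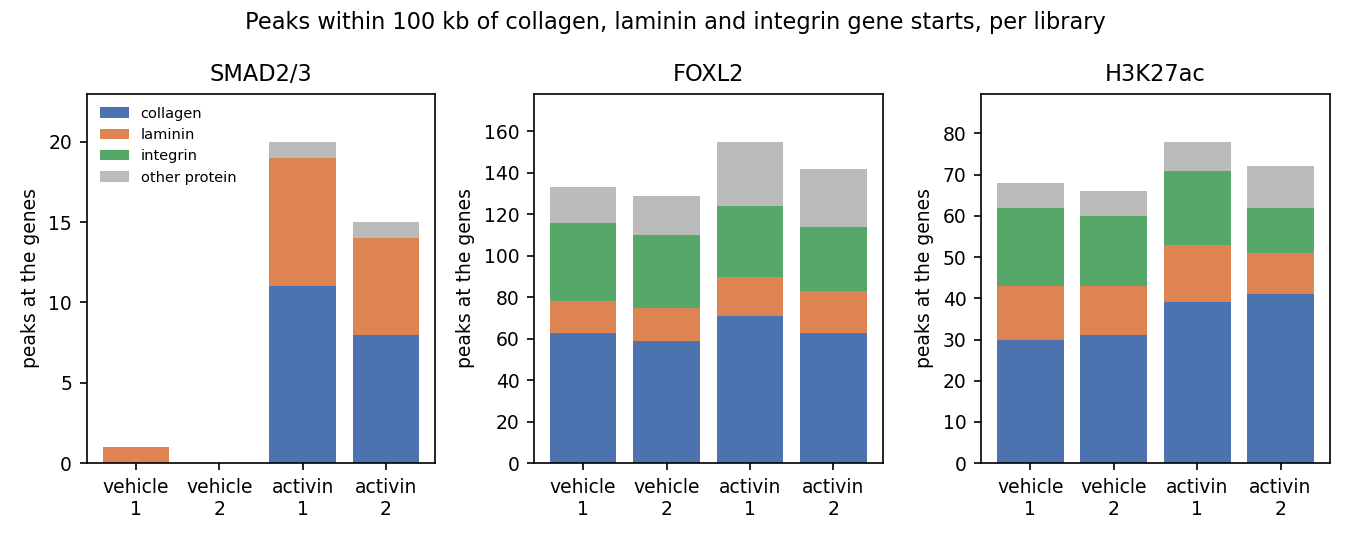
Number of peaks at collagen, laminin, integrin and other-protein genes (stacked bars, vertical axis from 0) in each of the 4 libraries of SMAD2/3, FOXL2 and H3K27ac. SMAD2/3 went from 1 and 0 peaks under vehicle to 20 and 15 under activin, with no integrin gene among them, whereas FOXL2 (129 to 155) and H3K27ac (66 to 78) peaks were present under both treatments.

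A laminin gene held the SMAD2/3 site with the best q. Lama1 (ENSMUSG00000032796) encodes the alpha chain of the laminin of early basement membranes. Its region at -6.46 kb, intergenic at chr17:67690538-67691064, had a fold of 5.4 in vehicle replicate 1, no peak in vehicle replicate 2, and 13.9 and 15.7 under activin. It ranked 74th and 46th by q in the activin lists and was the one member site with a vehicle SMAD2/3 peak, where it ranked 99th. Further regions of both activin libraries lay at -8.89 kb (6.52 and 5.45), at -4.79 kb (6.58 and 4.14) and in intron 1 at +7.31 kb (6.35 and 6.49), none with a vehicle peak.

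Lama4 (ENSMUSG00000019846) encodes an alpha chain of vascular and mesenchymal basement membranes. Its region at chr10:39108942-39109419, in an intron and 144 kb from the RefSeq 5′ end, had 17.6 and 13.9 under activin and no vehicle peak. Lamc1 had a region at chr1:153252742-153253134 in intron 4, with 5.04 and 6.45. By mean percentile in the activin lists the laminin sites thus ran from 99.2 at Lama1 and 94.5 at Lama4 down to 63.2 at Lamc1 and 43 at the weakest shared Lama1 region.

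Among collagens, Col5a1 (ENSMUSG00000026837), a fibrillar chain that sets the width of collagen I fibres, had the strongest region, at chr2:28014762-28015113 in intron 52 of 65. Its fold was 17.9 and 13.6 under activin, with no vehicle peak, and a second region in intron 32 had 6.7 and 6.01. Col4a6, a chain of the network-forming collagen IV of basement membranes, had a region at chrX:141207690-141208156 with 8.8 and 7.45, at a promoter annotated within the gene and 266 kb from its RefSeq 5′ end. The Col5a1 region likewise lay far, at 129 kb, from the gene's own 5′ end.

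The other collagen regions belonged to fibril-associated types, which sit on the surface of other fibrils. Col19a1 had one at chr1:24493003-24493570 in intron 11 of 50, with 10 and 5.61. The region that the tables gave to Col9a1 at +76.9 kb, with 8.92 and 10.1, and its neighbour at +76.1 kb, with 4.12 and 3.19, both lay in introns of Col19a1. Col9a2 had an intergenic region at -5.79 kb, with 6.31 and 4.36. The shared region with the lowest mean percentile by q, 9.42, was that of Itgb1bp2, the gene of the muscle protein melusin, at chrX:101459328-101459505, with 4.43 and 4.36.

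**Figure D2:**
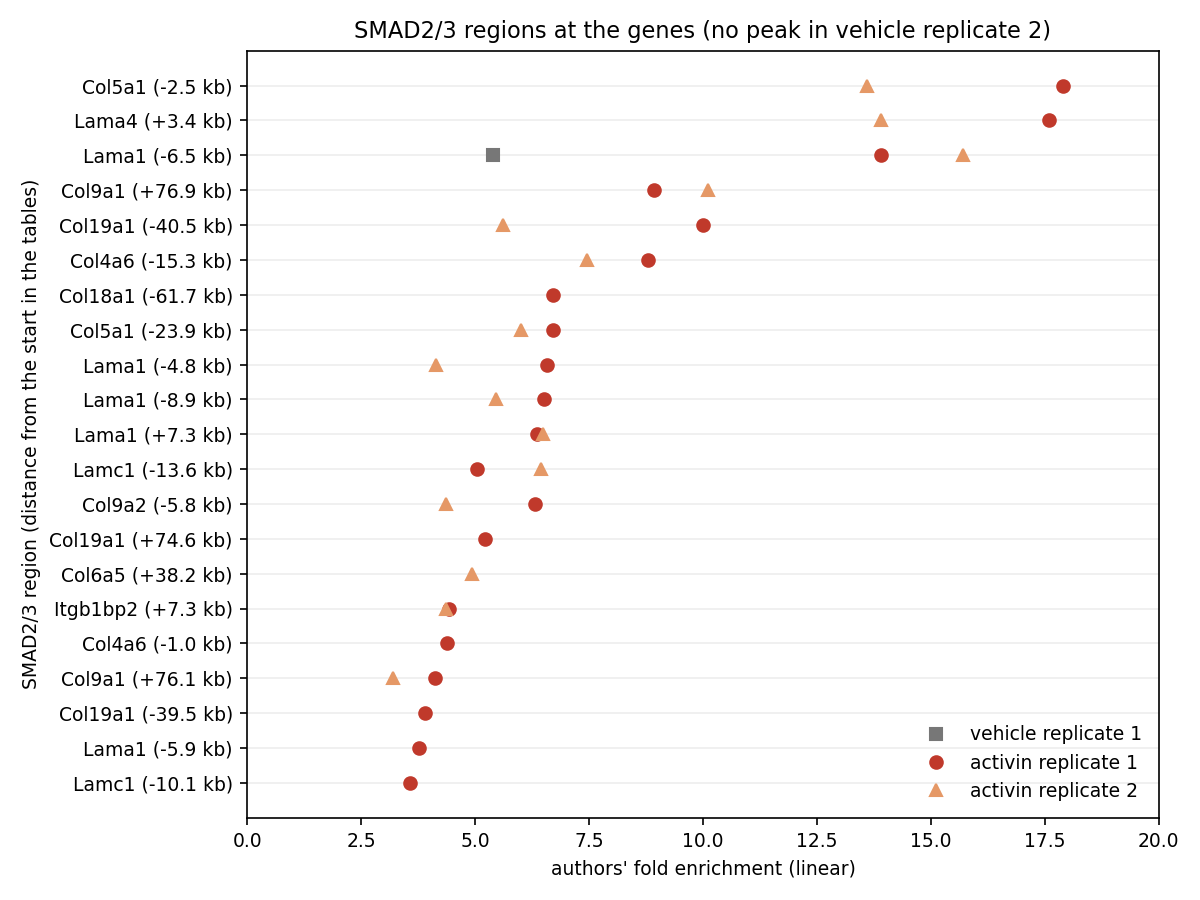
The authors' fold enrichment (horizontal axis, linear, from 0) of each of the 21 SMAD2/3 regions, one row per region, with 1 symbol per library that had a peak. The 3 strongest regions, at Col5a1, Lama4 and Lama1, lie between 13.6 and 17.9 under activin, and the square at 5.4 for Lama1 is the lone vehicle peak.

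The 7 regions of a lone activin library were weaker in fold than the strongest shared ones. Col18a1 had 6.7, Lama1 at -5.88 kb 3.76, Lamc1 3.57 and Col4a6 at -1 kb 4.38 in activin replicate 1, where Col19a1 had a further pair with 5.22 and 3.89. Col6a5, a chain of the beaded collagen VI, had 4.94 in activin replicate 2. Most of these regions thus came from activin replicate 1, which also had the longer list.

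Where the sites sat followed no common position. Of the 14 shared regions 8 were in introns, 5 were intergenic and 1 was at an annotated promoter. Measured from RefSeq 5′ ends, 5 lay within 10 kb and 6 lay more than 100 kb away. All of the 5 but that at Col9a2 were at Lama1, and the intergenic ones were at Lama1, Col9a2 and Itgb1bp2. The shares over all SMAD2/3 regions of both activin libraries were not computed for either split.

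Assignment to the nearest start leaves out part of the family. RefSeq has 86 protein-coding genes that match the name rule, of which 50 were named in the tables within the limit, while the tables name 64.7% of all RefSeq protein-coding symbols. Counted by RefSeq gene bodies with 10 kb on each side, a choice made after seeing the data, 14 of 86 family genes (16.3%) had a SMAD2/3 region of both activin libraries, against 11.6% of all RefSeq protein-coding genes. On that count integrin genes were not without SMAD2/3. A region inside Itgb4, the beta chain of hemidesmosomes, had 9.52 and 8.82 under activin. One beside Itga11, a collagen-binding alpha chain, lay in an exon of ENSMUSG00000032244 and had 4.12 and 4.85. The tables had named both for noncoding genes, and these genes were singled out after their values were seen. The strongest region beside any family gene on this count lay downstream of Itgb1bp2, at chrX:101471308-101471783, with 20.7 and 18 under activin and no vehicle peak, and the tables had named it for a pseudogene. In Lamc1 a region in intron 1 of 27 had 4.16 in vehicle replicate 1 and 6.44 and 3.94 under activin, a second site in the family with SMAD2/3 in a vehicle library. Intron 7 of 39 of Col19a1 held a region with 8.8 and 7.98 that lay beyond the distance limit, and an intron of Itgbl1 one with 9.01 and 3.91. These were singled out after their values were seen as well. Col1a1, the main chain of collagen I, and Lama5, the alpha chain of many adult basement membranes, each had a region in the flanking 10 kb, with 6.12 and 3.91 and with 6.12 and 4.42. For Col1a2, Col3a1, Col4a1 and Col4a2, which encode the remaining main chains of fibrils and of the basement membrane network, no peak of any target was found in the body or its flanks in the lists used here. Lamb1, a laminin beta chain gene, had 2 FOXL2 regions of all 4 libraries there and no SMAD2/3 or H3K27ac region, and Itgav, an integrin alpha chain gene, had 1 FOXL2 region.

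FOXL2 shared most of these sites. Of the 14 SMAD2/3 regions of both activin libraries 11 (78.6%, Wilson 95% interval 52.4 to 92.4) overlapped FOXL2 of both activin libraries, against 79.9% of all such regions near a protein-coding start. H3K27ac of both activin libraries overlapped 13 (92.9%, 68.5 to 98.7), against 79.6%, and 11 carried both. Where 50% of a SMAD2/3 region had to be covered, the H3K27ac share was 78.6%. The share of all such regions was not computed at that setting. With the vehicle lists, 9 overlapped FOXL2 (64.3%, against 70.6%) and 11 overlapped H3K27ac (78.6%, against 68.1%). Most of these places thus had FOXL2, and most had acetylation, in vehicle-treated cells too, as did most such regions across the series. SMAD2/3 and FOXL2 summits lay close together, with a median gap of 41 bp over 20 peaks in activin replicate 1 and 28 bp over 15 peaks in replicate 2, against 45 and 43 bp for all. Intervals of shares cover counting error only, and neighbouring regions are not independent.

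The overlap took different forms at single genes. In the Lama4 region FOXL2 stood at 50.4 and 40.7 under vehicle and 47 and 42.9 under activin, among the strongest FOXL2 sites of the genes under both treatments, while SMAD2/3 was seen under activin alone. At the strongest Col5a1 region FOXL2 had 9.89 and 11.7 under vehicle and 10.6 and 17.3 under activin. At the SMAD2/3 region of Itgb1bp2 given above all 3 targets were found in both activin libraries and in neither vehicle library. FOXL2 had 6.23 and 5.95 there, and the H3K27ac region at the edge of the SMAD2/3 region had 4.27 and 4.58. Elsewhere at this gene 2 FOXL2 regions were found in all 4 libraries.

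FOXL2 itself lay at most of the genes under both treatments. A FOXL2 region was found at 48 of 51 genes, and at 31 in all 4 libraries (94.1% and 60.8%, against 82.5% and 55.6% of protein-coding genes named within the limit). FOXL2 without any SMAD2/3 region was found at 38 genes, a count for which the share over all genes was not computed. A gene is named only where it has a peak, and by RefSeq gene bodies with 10 kb on each side 65.1% of family genes had FOXL2 of both activin libraries, against 54.9% of all. Vehicle libraries had 133 and 129 FOXL2 peaks at the genes and activin libraries 155 and 142, a mean of 131 ± 2.83 against 148 ± 9.19 (SD, n = 2 each, exact permutation p = 0.33). The groups did not overlap, though with lists of equal length they did (log2 difference 0.0219, exact permutation p = 1). Per 1000 peaks of a list they did: 1.54 and 1.54 under vehicle and 1.59 and 1.51 under activin, a difference of 0.00946 with a pooled SD of 0.038 (exact permutation p = 1).

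Of 188 FOXL2 regions 91 (48.4%) were found in all 4 libraries, against 47% of all near a protein-coding start, and 123 (65.4%, against 63.1%) in both activin libraries. Activin-only regions numbered 21 (11.2%, against 8.32%) and vehicle-only regions 7 (3.72%, against 3.36%). Lama1 alone held 5 of the 21, and without it the share was 16 of 172 (9.3%). Genes of other proteins held 7, collagens 6 and integrins 3. Leaving out activin replicate 2 gave 37 activin-only regions, since 1 activin library then sufficed.

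The genes with the most FOXL2 regions in all 4 libraries were Col4a3bp with 11, Col19a1 with 9, Col28a1, a collagen of the nervous system, with 8, Lama1 with 6 and Col9a1 and Itgb1 with 5 each. In an intron of Itgb1, at chr8:128695612-128696295, FOXL2 had 35.9 and 33.2 under vehicle and 44.7 and 44.9 under activin. This integrin gene was thus strongly bound by FOXL2 under both treatments with no SMAD2/3 region. The highest FOXL2 folds of all, singled out after they were seen, were at introns of Col22a1 (55.2 and 47.1, then 52.1 and 48.5), a collagen of tissue junctions, and of Col4a3bp (60.9 and 33, then 49.7 and 44.8). At an intron of Itga2, the alpha chain of a collagen receptor, FOXL2 had 27.2 and 27.3 under vehicle and 26.2 and 19.3 under activin. The strongest FOXL2 sites were therefore occupied under both treatments.

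To compare regions found in all 4 libraries, each was given a place from 0 to 100 by its −log10 q among the same set of regions in every library, so that the length of a list did not enter. Of the 91 FOXL2 regions 15 (16.5%) were placed higher in both activin libraries than in either vehicle library, against 25.1% of all near a protein-coding start, and 34 (37.4%) lower, against 33.4%. The median difference in place was -4.56, against -1.84. By family, 7 of 44 regions at collagen genes were placed higher and 20 lower, at integrin genes 5 of 24 higher and 7 lower, at laminin genes 3 of 9 higher and 2 lower, and at the other genes none of 14 higher and 5 lower. The largest shift upward was in an intron of Lama4, at chr10:39099420-39100257, with folds of 7.71 and 6.33 under vehicle and 18.5 and 12 under activin and a mean difference in place of 38.7. The next were upstream of Lama1 (6.3 and 3.71, then 8.79 and 8.21; 36.9) and at Itga4 (3.5 and 3.55, then 6.84 and 8.62; 32.3), an alpha chain that binds fibronectin. Downward, a region that the tables gave to Col4a6, although it lies outside that gene in an intron of ENSMUSG00000079418, had 7.59 and 6.38 under vehicle and 3.43 and 3.01 under activin (-38.6), followed by Itga10 (12.7 and 11.8, then 4.57 and 8.23; -33.8), a collagen-binding alpha chain, and Col15a1 (10.9 and 7.98, then 4.42 and 6.17; -30.9), a collagen of basement membrane zones. In each of these 6 regions the folds of the treatments did not overlap. The regions were chosen by their shift in the same libraries, so this is no separate support.

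Some FOXL2 regions were seen under 1 treatment only. The activin-only FOXL2 regions with the highest percentiles were at Lama1 (6.93 and 6.71), Itgbl1 (8.72 and 10.7), an integrin-like secreted protein, and Itga6 (6.31 and 6.2). The vehicle-only ones were at Col9a1 (4.83 and 7.04), Lamc1 (4.09 and 4.34) and Itgb1 (5.14 and 4.27).

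H3K27ac was found at 31 of 51 genes, and at 23 in all 4 libraries (60.8% and 45.1%, against 74% and 59.8% of protein-coding genes named within the limit). By RefSeq gene bodies with 10 kb on each side, 48.8% of family genes had H3K27ac of both activin libraries, against 57.9% of all. Vehicle libraries had 68 and 66 H3K27ac peaks at the genes and activin libraries 78 and 72, a mean of 67 ± 1.41 against 75 ± 4.24 (SD, n = 2 each, exact permutation p = 0.33). Per 1000 peaks the values were 1.65 and 1.63 under vehicle and 1.87 and 1.85 under activin, a difference of 0.214 with a pooled SD of 0.0142. The groups did not overlap on either scale, but with only peaks of −log10 q of at least 5 they did (log2 difference 0.142, exact permutation p = 1). Collagen genes held 30 and 31 peaks under vehicle and 39 and 41 under activin, integrin genes 19 and 17 and then 18 and 11. Broad peaks can split or join between libraries, and these numbers include such changes.

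Of 94 H3K27ac regions 37 (39.4%) were found in all 4 libraries, against 51.4% of all near a protein-coding start, and 46 (48.9%, against 60.2%) in both activin libraries, while 4 (4.26%) were activin-only and 4 vehicle-only, against 5.33% and 5.35%. Leaving out activin replicate 2 gave 21 activin-only regions, leaving out activin replicate 1 gave 10 and leaving out vehicle replicate 1 gave 7, since 1 library of that treatment then sufficed. Itgb1bp2 held a pair of the 4 activin-only regions (4.27 and 4.58, 3.38 and 3.8) and Col4a6 had one at the SMAD2/3 region described above (3.74 and 3.31). By mean percentile the vehicle-only regions ran from one at Itga11 (2.98 and 2.87), one in the same intron of ENSMUSG00000079418, again given to Col4a6 (3.68 and 2.97), and one at Itgb5 (2.34 and 2.23), a vitronectin receptor chain, to one at the Col9a2 start (3.08 and 3.6).

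Among the 37 regions 15 (40.5%) were placed higher in both activin libraries, against 27.3%, and 12 (32.4%) lower, against 27.8%. By family, collagen genes had 8 of 17 higher and 3 lower, laminin genes 5 of 8 higher and 2 lower, integrin genes 2 of 8 higher and 4 lower, and the other genes none of 4 higher and 3 lower. The 37 regions were then split by SMAD2/3. Of the 8 that overlapped a SMAD2/3 region of both activin libraries 7 were placed higher and none lower, with a median difference of 26.8. Of all such regions 68.8% were placed higher and 14.1% lower. Of the 29 without SMAD2/3, 8 (27.6%, against 23.2%) were placed higher and 12 (41.4%, against 29.2%) lower. For FOXL2 2 of 8 with SMAD2/3 were placed higher (47.5% of all) and 1 lower (22.8% of all). Without SMAD2/3, 13 of 83 were placed higher (15.7%, against 23.7%) and 33 lower (39.8%, against 34.1%). The H3K27ac regions at SMAD2/3 sites of these genes were thus mostly placed higher under activin, as such regions were across the series.

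**Figure D3:**
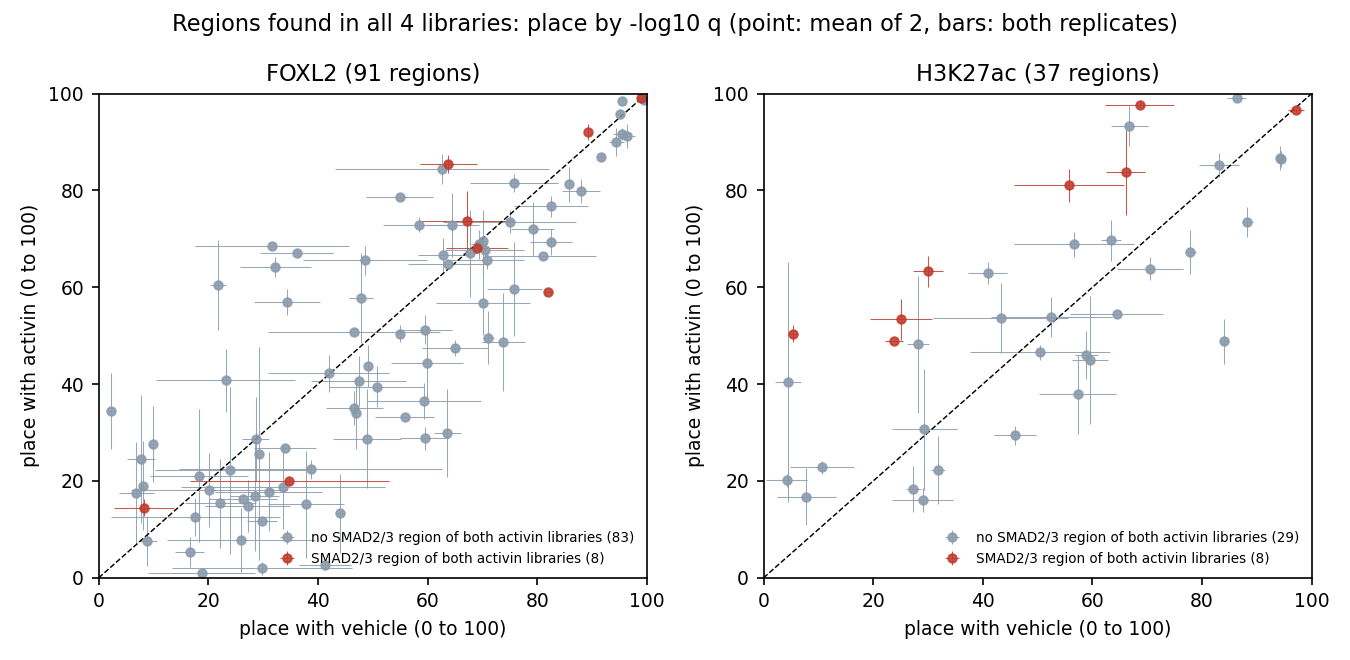
Place (0 to 100, by −log10 q) under activin against place under vehicle for the regions found in all 4 libraries, FOXL2 on the left (91) and H3K27ac on the right (37). Points are means of 2 libraries, bars run between the replicates, red marks regions with SMAD2/3 of both activin libraries, and 7 of the 8 red H3K27ac points were placed higher in both activin libraries.

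The largest upward H3K27ac shift was at the strongest Col5a1 SMAD2/3 region, at chr2:28013502-28016318, with folds of 3.15 and 2.95 under vehicle and 4.53 and 4.48 under activin and a difference in place of 45.1. The next were at Col2a1, the fibrillar chain of cartilage, with 3.01 and 3.22 and then 3.5 and 5.67 (36), and in intron 1 of Lama1, with 3.27 and 3.21 and then 4.54 and 4.22 (33.2). At Col18a1, whose product yields endostatin, a region at chr10:77149910-77152979 had 7.3 and 7.15 under vehicle and 11.1 and 12.9 under activin, beside a SMAD2/3 region of activin replicate 1 only. The largest downward shifts were at Itgb1bp1 (6.32 and 6.07, then 4.25 and 3.81; -35.2), farther into Lama1 (4.1 and 3.42, then 3.36 and 3.05; -19.4) and at Col4a3bp (4.26 and 4.3, then 3.55 and 3.69; -16.4). In each of these 7 regions the folds of the treatments did not overlap. All but that at Col18a1 were chosen by their shift in the same libraries, so this is no separate support.

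Lama1 brought the 3 targets together. Upstream of its start, at chr17:67687389-67693658, H3K27ac had 4.23 and 3.56 under vehicle and 7.7 and 6.95 under activin, a difference in place of 29.1. Each vehicle library had 3 separate peaks here, which covered 4020 and 4188 bp, and each activin library had 1 continuous peak, of 6270 and 6164 bp. Inside it lay 1 and 0 SMAD2/3 peaks under vehicle and 4 and 3 under activin, and 3 and 2 FOXL2 peaks under vehicle and 7 and 6 under activin. At the strongest SMAD2/3 region FOXL2 had 7.59 and 7.58 under vehicle and 12.5 and 12.9 under activin. The upstream stretch thus had more peaks of both factors and a wider acetylated peak in each activin library. Farther into the gene the picture differed. In intron 1 at +12.5 kb, an H3K27ac region of 6857 bp had 5.49 and 5.33 under vehicle and 4.9 and 4.5 under activin. Its difference in place was -7.39. The H3K27ac region at +36.3 kb had the lower folds under activin that are given above.

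**Figure D4:**
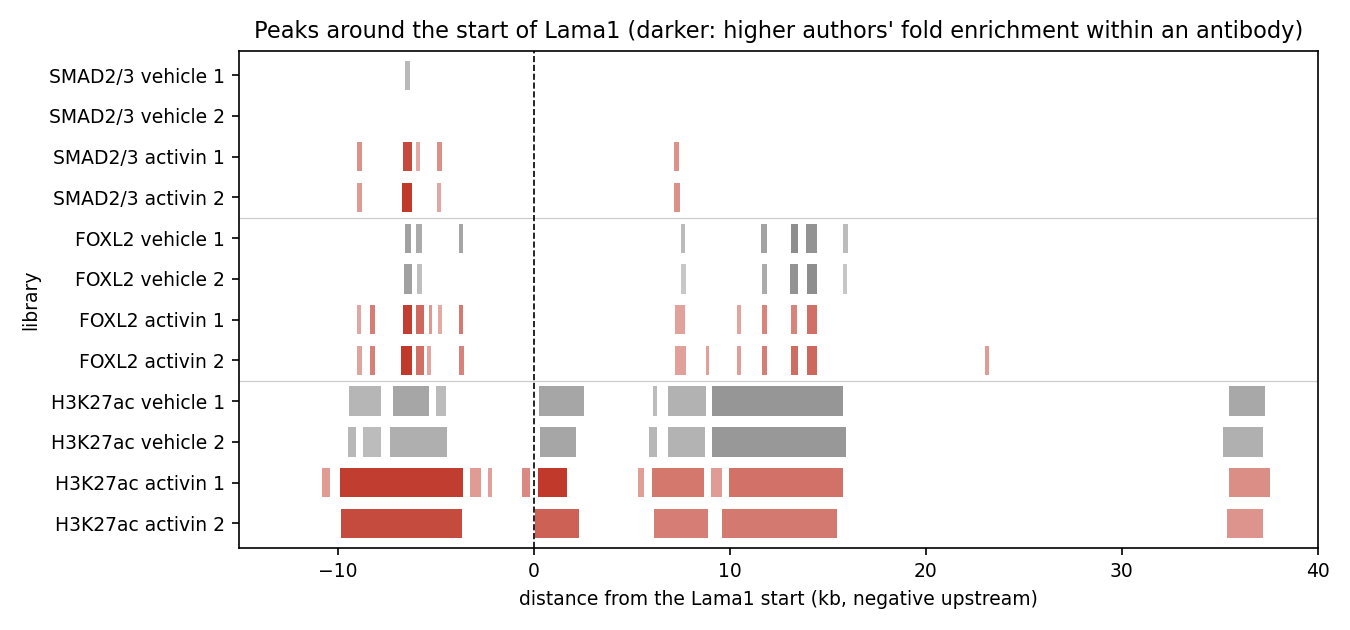
Peaks in each of the 12 libraries around the Lama1 start listed in the tables (horizontal axis in kb, dashed line at the start, negative values upstream). Bars are peaks, grey for vehicle and red for activin, darker for a higher authors' fold enrichment within an antibody, and the acetylated stretch upstream of the start is 1 unbroken bar in each activin library and 3 bars in each vehicle library.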

How the data were processed

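For 12 libraries a list of peaks and a table that annotates them were deposited (SMAD2/3, FOXL2 and H3K27ac, 2 vehicle and 2 activin libraries each), and peaks were called per library, as the peak names in the files show. Bowtie2, MACS2 and HOMER and the builds GRCm38 and mm10 are named in the submitters' processing notes, without versions or roles, and the use of the control is not given in the sources used here. The values of a peak are a fold enrichment computed by the authors, which is a ratio on a linear scale, the authors' −log10 of p and q, and a deposited score. The deposited annotation tables give other values, the distance in bp to the nearest start and the gene name. The smallest −log10 q per deposited list lay between 1.3 and 1.78 for SMAD2/3 and FOXL2 and between 1 and 1.01 for H3K27ac.

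The peaks were taken as deposited, assigned to genes by the tables within 100 kb, merged into regions across the 4 libraries of an antibody (at least 1 bp shared), and classed by the libraries with a peak. Co-occupancy needed 1 bp. Numbers of peaks, as log2(number + 1), were compared by exact permutation (two-sided, 6 labellings), whose smallest p is 0.33. No test was run over regions, which are not replicates. The lists hold no counts of reads, so depth is unknown, and the labels name no batch. The labels describe duplicate samples pooled from plates and not separate cultures, so a p measures the spread between these samples, which may be technical. The replicate numbers were not taken to pair the samples.

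Genes named are, by rule, those with the best placed SMAD2/3 regions of both activin libraries, those with the most FOXL2 regions in all 4 libraries, the 3 strongest activin-only and vehicle-only regions and the 3 largest shifts each way for FOXL2 and H3K27ac, a list of 14 genes (Col1a1, Col1a2, Col3a1, Col4a1, Col4a2, Col18a1, Lama1, Lama5, Lamb1, Lamc1, Itga6, Itgb1, Itgav and Itgb5), genes with a vehicle SMAD2/3 peak, and the genes of other proteins. Of the 14, Col1a1, Col1a2, Col3a1, Col4a1, Col4a2, Lama5, Lamb1 and Itgav were not named in the tables, and they entered only the counts by RefSeq genes. Lamb1 is a laminin beta chain gene and Itgav an integrin alpha chain gene whose product binds RGD sequences. Other names were chosen after their values were seen. The members, lists and rules were chosen with earlier results of these data known. Alternatives were a −log10 q of at least 5, a limit of 50 kb, merging and overlap thresholds, placing by fold, vehicle lists for co-occupancy, a start window of 250 bp, lists of equal length, a replicate block, each library left out, and RefSeq gene bodies (added after seeing the data). Scripts were tested on simulated data. Python 3.11.15, numpy 2.4.6, pandas 2.3.3, scipy 1.17.1 and matplotlib 3.10.9 were used. Promoter sequences are from RefSeq (GRCm38.p6); 62 of 86 family genes had one.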

Additional observations from a re-analysis of the deposited data

Results flagged for a closer look

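Peaks that the tables assign to 5 genes of the family lie beyond the 100 kb limit and entered none of the comparisons, and no control measured the same way stands beside them. Col9a1 had 18 such peaks (3 SMAD2/3, 11 FOXL2 and 4 H3K27ac), 103 to 110 kb from its listed start. Lama4 had 17 (10 FOXL2 and 7 H3K27ac, no SMAD2/3), at 113 to 128 kb. Col19a1 had 14 (1 SMAD2/3 and 13 FOXL2), at 100 to 108 kb. Col22a1 had 7 and Lama2 had 5, all FOXL2, at 109 to 123 kb and at 121 to 145 kb. At these genes the counts are therefore lower bounds for the nearest-start assignment.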

How the results depend on the processing

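Recomputed with other settings, no value reversed and 7 counts moved by over 1.5 times. For the numbers of peaks only the direction was compared, since 2 against 2 libraries reach no threshold, and their size did change: with lists of equal length the log2 difference was 0.5 for SMAD2/3 and 0.0219 for FOXL2 (exact permutation p = 1 for each), and with a −log10 q of at least 5 that for H3K27ac was 0.142 (exact permutation p = 1). With a −log10 q of at least 5, vehicle-only H3K27ac regions numbered 1 (main 4), and H3K27ac regions placed higher numbered 8 under activin and 7 under vehicle. Within 50 kb, vehicle-only regions numbered 4 for FOXL2 and 2 for H3K27ac. With lists of equal length 0 SMAD2/3 regions were activin-only (main 13), because the lists were reduced to the shortest vehicle list. RefSeq gene bodies gave 14 genes with SMAD2/3 of both activin libraries (main 9).

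Leaving out 1 library at a time, activin-only regions ranged from 26 to 37 for FOXL2, 6 to 21 for H3K27ac and 13 to 19 for SMAD2/3, and vehicle-only regions from 12 to 18 for FOXL2 and 5 to 14 for H3K27ac, since 1 library then met the criterion for its treatment. FOXL2 regions placed higher ranged from 21 to 31 under activin and from 47 to 53 under vehicle, and H3K27ac regions from 19 to 21 and from 15 to 16. With a replicate block the log2 differences were 3.7 for SMAD2/3, 0.178 for FOXL2 and 0.159 for H3K27ac, as without it, each with an exact sign-flip p of 0.5, the smallest that 2 pairs allow. The reads per library are unknown, so the depth behind a missing peak cannot be judged.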

Other observations

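Of 48 other matrix and adhesion genes looked up 36 were named in the tables, with 13 SMAD2/3 regions. Of these 8 were in both activin libraries, against 59.6% of all regions near a protein-coding start. They were named for 5 genes, Sparc, Dag1, P4ha1, P4ha2 and Mmp2, against 11.2% of protein-coding genes. By RefSeq gene bodies with 10 kb on each side SMAD2/3 was counted at 7 of the 48: P4ha1, P4ha2, Dag1, Parva, Tln2, Lims1 and Vcl. The regions named for Sparc and Mmp2 lay outside those bodies and flanks. At Sparc, which encodes a collagen-binding matrix protein, a region at chr11:55380649-55381128 was found in all 4 SMAD2/3 libraries, with 11.5 and 9.85 after activin. At Dag1, the gene of dystroglycan, a laminin receptor, a region at chr9:108268672-108269336 had 19 and 15.8 after activin and a peak in vehicle replicate 1. P4ha1 and P4ha2, which encode enzymes that hydroxylate collagen prolines, had regions with 5.62 and 7.23 and with 5.99 and 5.51, and Mmp2, a matrix protease gene, one with 9.05 and 7.08. These 36 genes held 139 FOXL2 regions, 12 activin-only, 8 vehicle-only and 61 in all 4 libraries, beside 8.32%, 3.36% and 47% of all regions near a protein-coding start. They held 72 H3K27ac regions, 2 activin-only, 6 vehicle-only and 31 in all 4 libraries, beside 5.33%, 5.35% and 51.4% of all. No test of these genes was made.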
